A study of Mus musculus with 8 samples.

Results

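NRF2 target genes and antioxidant enzymes were examined in a lobe of the mouse lung after naphthalene. The set was defined by gene symbol, as 41 genes of the NRF2 pathway, haem and iron handling, NADPH supply, and the thioredoxin, peroxiredoxin, peroxide and superoxide enzymes. All 41 were among the 22244 genes of the count table, and 40 had enough counts to be tested.

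Libraries came from the right cranial lobes of adult male C57BL/6J mice, with 4 libraries from untreated animals (control) and 4 from animals injected with naphthalene. Naphthalene is an aromatic hydrocarbon that airway club cells oxidise to reactive, glutathione-depleting metabolites. The labels used here state no dose, vehicle, time after injection or age in weeks, and the controls are labelled as untreated, so injection and naphthalene cannot be told apart. Levels are in CPM (counts per 1000000 counts of the library), scaled between libraries by TMM. Because whole lobes were sequenced, a change in the number of cells of a type and a change in RNA per cell cannot be told apart in any result.

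NRF2, encoded by Nfe2l2, is a transcription factor that is held in the cytoplasm and marked for destruction by KEAP1 under resting conditions. Electrophiles and oxidants modify KEAP1, NRF2 then accumulates in the nucleus with a small MAF partner, and genes with an antioxidant response element are transcribed. Its control is therefore largely at the level of protein, which RNA counts do not measure. Known targets include quinone reductases, haem oxygenase, ferritins, the thioredoxin system and enzymes that regenerate NADPH.

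The core of the antioxidant response element was looked for as TGACNNNGC, on both strands, in RefSeq promoter windows (GRCm38.p6, 250 bases before to 50 after each start). Some genes have more than 1 start, with 32851 windows in all. A gene was counted if any of its windows held a match, so genes with more starts had more chances to match. The windows were matched by symbol for 36 of the 41 genes, and 12 of those 36 held at least 1 match. Among all 27025 genes with a window 14.0% held a match, and among the 10982 tested genes with a window 16.8%. A match was present in 8 of the 25 genes with a window that rose after naphthalene and in 4 of the 11 that did not pass the test. No window was matched for Hmox1, Slc48a1, Prdx6, Sod3 and Abcc1. Sequence outside the windows of 300 bases was not searched, so a gene without a match may still have an element. Of the 14 matches, 2 also hold TGACTCA, the AP-1 motif. Of these 12 genes, 5 that rose and Nfe2l2 itself are shown as examples of the letters that the search found, written in the gene's direction with the match in capitals. A match in capitals that begins with GC is read on the opposite strand.
Prdx1, chr4:116685456-116685484, plus strand: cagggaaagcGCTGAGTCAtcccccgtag
Ugdh, chr5:65435956-65435984, minus strand: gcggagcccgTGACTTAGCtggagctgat
Me1, chr9:86695902-86695930, minus strand: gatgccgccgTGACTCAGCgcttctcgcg
Txnrd1, chr10:82859104-82859132, plus strand: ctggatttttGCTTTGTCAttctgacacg
G6pdx, chrX:74428919-74428947, minus strand: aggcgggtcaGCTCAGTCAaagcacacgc
Nfe2l2, chr2:75704885-75704913, minus strand: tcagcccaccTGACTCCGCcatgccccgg
The first base of the match lies 133 bases before the start in Prdx1, 132 in Ugdh, 6 in Me1, 92 in Txnrd1, 57 in G6pdx and 240 in Nfe2l2. These are matches of letters, not measured binding.

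Most of the set rose. Of 40 tested genes, 26 were higher and 1 was lower after naphthalene at an edgeR adjusted p under 0.05, against 14.1% higher and 14.6% lower (28.7% in either direction) among all 14192 tested genes. The median log2 fold change was 0.49 over the 40 genes and 0.011 over all tested genes. For 24 of the 40 genes every naphthalene library lay above every control library, which held for 13.9% of all tested genes, and for 1 gene every naphthalene library lay below (14.7% of all tested genes). At least a 2-fold rise was seen for 7 genes, namely Srxn1, Hmox1, Nqo1, Osgin1, Blvrb, Taldo1 and Txnrd1, and for 2.83% of all tested genes. The number higher was 21 to 28 when each library was left out in turn, and 28 without control 3 and naphthalene 1. Over all tested genes 1397 to 2465 were higher with each library left out, and 2638 without control 3 and naphthalene 1.

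**Figure D1:**
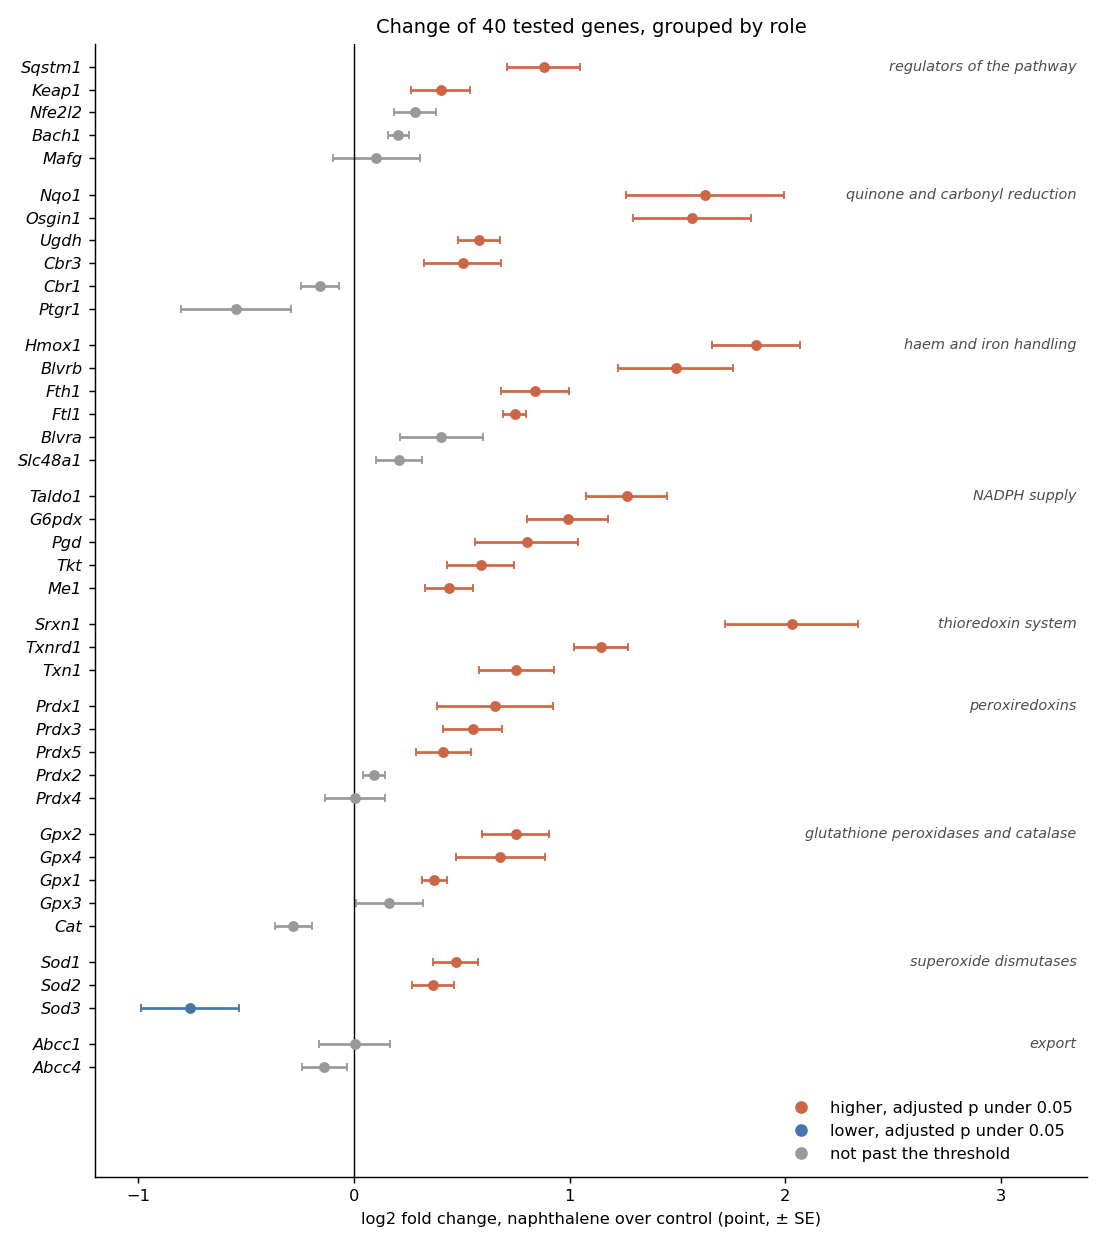
Log2 fold change (naphthalene over control, x axis) with its standard error for the 40 tested genes, grouped by role, with 4 libraries in each group. All 5 NADPH supply genes and all 3 thioredoxin system genes lie to the right of 0 and passed the test, and Sod3 alone passed to the left.

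Injury and depth were as follows. Total counts ran from 10743842 to 16792306 per library, and 3 counts equal 0.179 to 0.275 CPM. The club cell genes Scgb1a1 and Cyp2f2 were lower after naphthalene, by log2 values of -1.85 (SE 0.42) and -2.62 (SE 0.33), as were 8 of 9 club cell markers in all. Erythroid marker levels were uneven within both groups, at a summed 32.4 to 1271 CPM in controls and 52.7 to 2985 CPM after naphthalene. Control 3 and naphthalene 1 stood apart from their groups in an earlier analysis of these data, and values without them are given where they change a call.

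Transcripts of the regulators Nfe2l2, Keap1, Bach1 and Mafg changed less than those of many targets. Sqstm1 and the small MAF genes Maff and Mafk rose by more than any of these. Of 5 regulator genes, Sqstm1 and Keap1 rose, and Nfe2l2, Bach1 and Mafg did not pass the test. Nfe2l2 was at 137, 143, 166 and 141 CPM in controls and at 154, 178, 199 and 184 CPM after naphthalene. The groups overlapped, since naphthalene 1 lay below control 3, and the log2 fold change was 0.28 (SE 0.098, edgeR adjusted p = 0.0566). Nfe2l2 passed when control 3, naphthalene 1 or both were omitted, and also with DESeq2 and with voom.

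Keap1, the adaptor that targets NRF2 for ubiquitination, was at 56.5, 54.1, 53.0 and 50.5 CPM in controls and 76.1, 82.5, 70.2 and 53.8 CPM after naphthalene. It rose by 0.40 (log2, SE 0.14, adjusted p = 0.0321), with naphthalene 4 inside the control range. Keap1 did not pass when any 1 control, naphthalene 2 or naphthalene 3 was omitted (adjusted p up to 0.106), nor without control 3 and naphthalene 1 together. Bach1, a repressor that competes with NRF2 for the same DNA elements and is released by haem, was at 132, 126, 146 and 132 CPM in controls and 154, 159, 153 and 150.4 CPM after naphthalene. Every naphthalene library was above every control, but the difference was small (log2 0.21, SE 0.048, adjusted p = 0.0743). Bach1 passed when control 3 was omitted, alone or with naphthalene 1, and also with DESeq2 and with voom. It did not pass when any other single library was omitted (adjusted p up to 0.211).

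Mafg, a small MAF partner of NRF2, was at 115, 82.3, 67.8 and 99.7 CPM in controls and 111, 109, 92.3 and 78.9 CPM after naphthalene. These ranges overlapped nearly in full (log2 0.10, SE 0.20, adjusted p = 0.669), and the Mafg log2 fold change was -0.0158 without control 3. The other small MAF genes, Maff and Mafk, passed the test at 17.0 ± 2.79 against 45.4 ± 8.92 CPM and 102 ± 4.27 against 175 ± 22.7 CPM (mean ± SD, n = 4 per group), and Mafk was named after its values were seen. Sqstm1 encodes p62, an autophagy receptor that binds KEAP1 and is itself an NRF2 target. It was at 259, 288, 279.5 and 279 CPM in controls and at 433, 548, 655 and 397 CPM after naphthalene, a clear gap between groups (log2 0.88, SE 0.17, adjusted p = 0.00135).

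Among genes for reduction of quinones and carbonyls and related targets, 4 of 6 rose. Nqo1, the quinone reductase that is the classical NRF2 target, was at 9.77, 9.65, 11.95 and 14.97 CPM in controls and 20.1, 35.9, 60.4 and 27.6 CPM after naphthalene. No libraries overlapped, yet the naphthalene libraries were widely spread, with naphthalene 1 lowest and naphthalene 3 highest (log2 1.63, SE 0.37, adjusted p = 0.00239). Osgin1, an oxidative stress induced growth inhibitor, was at 8.16, 7.84, 7.64 and 10.7 CPM in controls and 19.9, 30.1, 35.3 and 16.8 CPM after naphthalene. Its lowest naphthalene library still exceeded the highest control (log2 1.57, SE 0.27, adjusted p = 0.000668). Ugdh makes UDP-glucuronic acid, the sugar donor of glucuronidation. Its controls lay close together at 46.3, 42.7, 46.0 and 44.6 CPM, and the naphthalene libraries stood above them at 57.0, 63.3, 75.8 and 72.2 CPM (log2 0.58, SE 0.097, adjusted p = 0.00212).

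The carbonyl reductases Cbr1 and Cbr3 are close paralogues, so reads shared between them could be divided or dropped by the counting. Cbr3 rose from 10.8 ± 1.98 to 15.4 ± 2.58 CPM (log2 0.50, SE 0.18, adjusted p = 0.0432), with no overlap, though its lowest naphthalene library (13.1 CPM) was barely above the highest control (12.9 CPM). Cbr3 did not pass when control 1, 2 or 3, or naphthalene 2 or 3, was omitted (adjusted p up to 0.126), nor with upper quartile scaling. Cbr1 was at 20.8 ± 2.51 and 18.7 ± 0.407 CPM (log2 -0.16, SE 0.087, adjusted p = 0.317). Ptgr1, which reduces the double bond of leukotrienes, prostaglandins and lipid-derived alkenals, is a known NRF2 target whose mean was lower after naphthalene. Its levels were 30.3, 30.3, 31.2 and 35.2 CPM in controls and 14.999, 19.3, 34.0 and 19.1 CPM after naphthalene. Here 3 naphthalene libraries lay below all controls and naphthalene 3 lay inside the control range (log2 -0.55, SE 0.25, adjusted p = 0.0745). The Ptgr1 log2 fold change was -0.84 without naphthalene 3 and passed as lower (adjusted p = 0.00174), and it passed as lower with voom on all 8 libraries. Ptgr1 did not pass when any other single library was omitted (adjusted p up to 0.169).

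**Figure D2:**
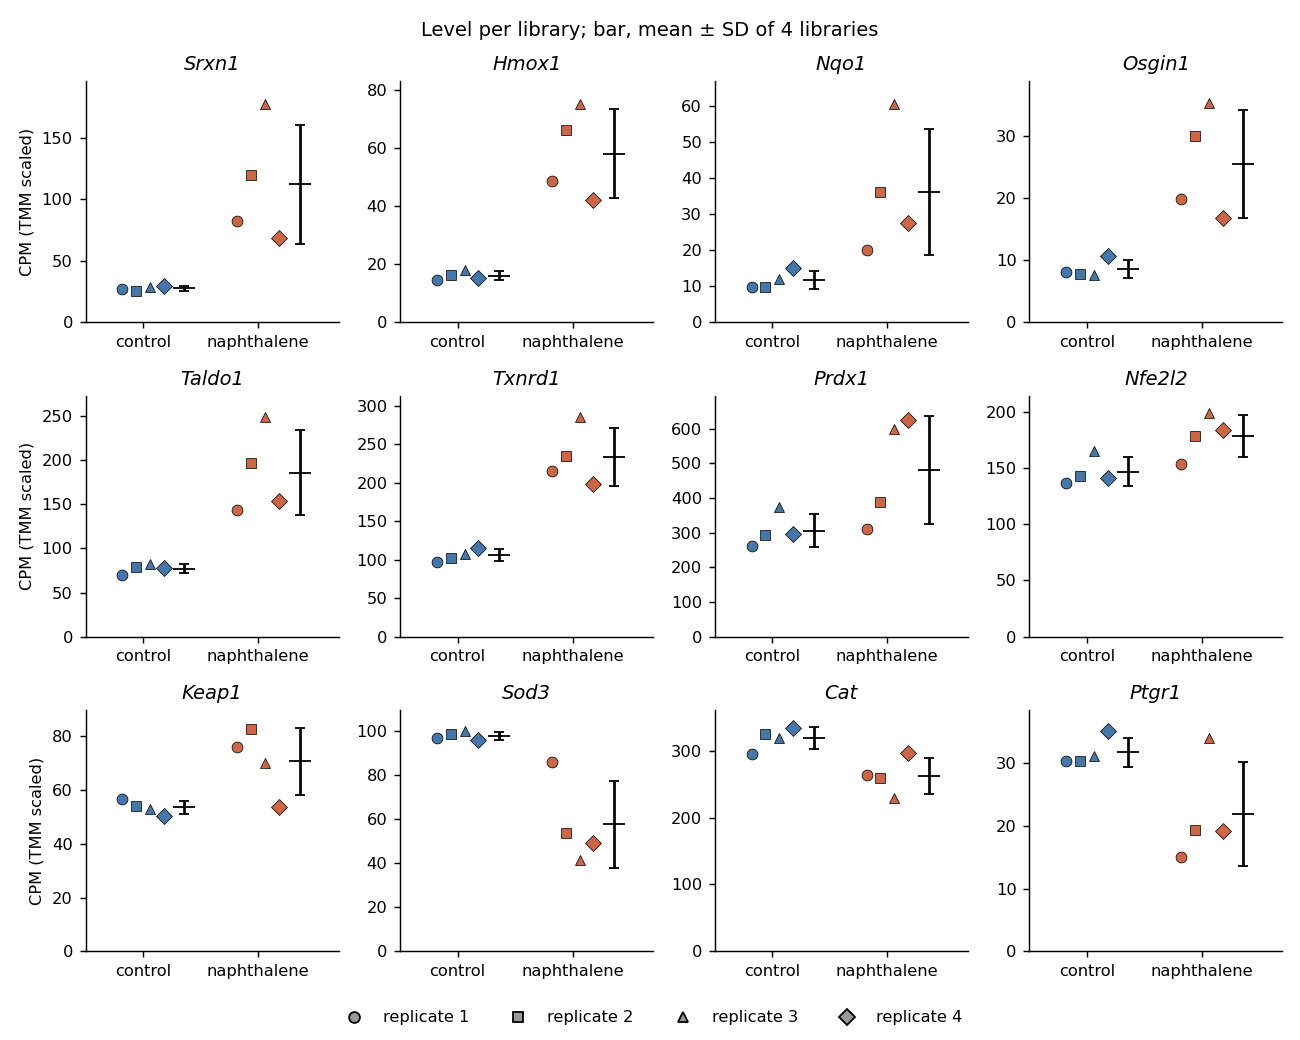
Level in CPM (y axis, from 0) of 12 genes in each library, with 1 symbol per replicate number and a bar for the mean ± SD of 4 libraries. Srxn1, Hmox1, Nqo1, Osgin1, Taldo1 and Txnrd1 show no overlap between groups and are highest in naphthalene 3, whereas Sod3 is lowest in that library.

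Haem and iron handling genes rose in 4 of 6 cases. Hmox1, the inducible haem oxygenase that splits haem into biliverdin, iron and carbon monoxide, had the smallest p of the set. It was at 14.4, 16.2, 18.0 and 15.3 CPM in controls and 48.7, 66.2, 75.5 and 42.3 CPM after naphthalene. Every naphthalene library was far above the highest control (log2 1.86, SE 0.20, adjusted p = 5.41e-05), a 3.64-fold rise.

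Biliverdin is reduced to bilirubin by biliverdin reductases. Blvrb, which also acts as a flavin reductase, was at 11.1, 12.5, 13.6 and 15.3 CPM in controls and 23.6, 34.8, 55.1 and 34.8 CPM after naphthalene. All naphthalene libraries were above all controls (log2 1.49, SE 0.27, adjusted p = 0.000764). Blvrb is abundant in red cells. Naphthalene 3 was the highest naphthalene library for 17 of the 26 genes that rose, Blvrb among them, and also for the summed erythroid markers. Those markers summed to 32.4, 112, 56.9 and 1271 CPM in control 1 to 4 and to 52.7, 61.8, 2985 and 637 CPM in naphthalene 1 to 4, with 0 of 6 tested markers changed, and the part of red cells in the rise of Blvrb was not tested. Blvra, the main biliverdin reductase of adult tissue, did not pass at 20.5 ± 2.25 and 27.3 ± 6.78 CPM (log2 0.40, SE 0.19, adjusted p = 0.0946). It passed when naphthalene 1 was omitted, alone or with control 3, but not when any other single library was omitted (adjusted p up to 0.271).

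Ferritin light and heavy chain genes store and detoxify iron released from haem, and processed pseudogenes of both exist, so their counts depend on how multiply mapped reads were treated. Ftl1 was at 837, 878, 833 and 888 CPM in controls and 1430, 1463, 1541 and 1321 CPM after naphthalene, with tight groups far apart (log2 0.74, SE 0.052, adjusted p = 0.000279). Fth1 was at 849, 765, 1021 and 782 CPM in controls and 1263, 1361, 1636 and 1853 CPM after naphthalene, also without overlap (log2 0.84, SE 0.16, adjusted p = 0.00174). Per kb of the longest GENCODE transcript (protein-coding where annotated) these were the most abundant of the 40 tested genes, at 887 CPM per kb for Ftl1 and 572 for Fth1 in controls. The same order held per kb of all annotated exons (641 and 246). Slc48a1, a transporter that moves haem out of lysosomes, did not pass at 101 ± 8.58 and 116 ± 13.7 CPM (log2 0.21, SE 0.11, adjusted p = 0.165). It passed as higher when naphthalene 4 was omitted and with voom, but not when any other single library was omitted (adjusted p up to 0.323). Macrophages also express Hmox1 and ferritins. Of 9 alveolar macrophage markers 8 were tested, 0 rose and 1 fell, and Marco (on chromosome 1) was listed at 0. Their summed level was 487 to 897 CPM in controls and 530 to 1316 CPM after naphthalene. Of 8 monocyte and macrophage markers 0 rose and 2 fell, at a summed 4942 to 6922 CPM in controls and 4141 to 6823 CPM after naphthalene. The part of these cells in the iron and haem genes was not tested.

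NADPH supply genes rose together, with 5 of 5 past the test. NADPH is the electron source for thioredoxin reductase, glutathione reductase and NQO1. In the oxidative branch of the pentose phosphate pathway, G6pdx encodes its first and rate-limiting enzyme. G6pdx was at 36.1, 35.9, 40.4 and 39.7 CPM in controls and 62.9, 77.7, 103 and 58.9 CPM after naphthalene, with no overlap (log2 0.99, SE 0.19, adjusted p = 0.00118). Pgd, the later dehydrogenase of that branch, ran from 57.4 to 72.7 CPM in controls and from 75.7 to 149 CPM after naphthalene, with a narrow gap between groups (log2 0.80, SE 0.24, adjusted p = 0.0097).

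Taldo1, transaldolase of the non-oxidative branch, was at 69.7, 79.4, 81.9 and 77.8 CPM in controls and 143, 197, 249 and 154 CPM after naphthalene. It changed most among the NADPH supply genes by the fitted fold (2.40-fold, log2 1.26, SE 0.19, adjusted p = 0.000259). Tkt, transketolase of the same branch, was at 113 to 129.8 CPM in controls and 144 to 223 CPM after naphthalene (log2 0.59, SE 0.16, adjusted p = 0.00793). Me1, cytosolic malic enzyme, was at 96.9 to 113 CPM in controls and 118 to 163 CPM after naphthalene (log2 0.44, SE 0.11, adjusted p = 0.0112). In all 5 genes every naphthalene library was above every control.

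All 3 genes of the thioredoxin system rose. Srxn1, sulfiredoxin, restores peroxiredoxins whose catalytic cysteine has been over-oxidised, and it had the largest fold of the set at 4.08. It was at 26.7, 25.04, 28.9 and 29.0 CPM in controls and 82.4, 119.6, 177 and 68.6 CPM after naphthalene. Controls lay within a few CPM of each other, the naphthalene libraries were widely spread, and the groups did not overlap (log2 2.03, SE 0.31, adjusted p = 0.000239).

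Txnrd1, the cytosolic selenoenzyme that reduces thioredoxin with NADPH, was at 97.8, 102, 107 and 116 CPM in controls and 216, 235, 286 and 198 CPM after naphthalene. Its groups were well separated (log2 1.14, SE 0.13, adjusted p = 7.87e-05). Txn1, thioredoxin itself, was at 93.4 to 119.5 CPM in controls and 136 to 232 CPM after naphthalene, again without overlap (log2 0.75, SE 0.17, adjusted p = 0.00332).

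Peroxiredoxins, which remove hydrogen peroxide with thioredoxin as reductant, were divided. Of 5 tested, Prdx1, Prdx3 and Prdx5 rose, and Prdx2 and Prdx4 did not pass. Prdx1, a cytosolic NRF2 target, was at 260.4, 294, 373 and 295 CPM in controls and 311, 389, 599.8 and 627 CPM after naphthalene. Naphthalene 1 lay inside the control range, and naphthalene 3 and 4 were well above it (log2 0.66, SE 0.27, adjusted p = 0.0377). Prdx1 did not pass when control 1, 2 or 4, or naphthalene 3 or 4, was omitted (adjusted p up to 0.111).

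The mitochondrial Prdx3 rose from 55.7 ± 4.38 to 81.7 ± 13.6 CPM (log2 0.55, SE 0.14, adjusted p = 0.00719). Prdx5, found in mitochondria, peroxisomes and cytosol, rose from 67.9 ± 7.51 to 90.6 ± 12.3 CPM (log2 0.41, SE 0.13, adjusted p = 0.023), and did not pass when control 1, control 2 or naphthalene 3 was omitted (adjusted p up to 0.0734). Prdx2, abundant in red cells, was at 76.9 ± 4.92 and 82.1 ± 2.67 CPM (log2 0.093, SE 0.052, adjusted p = 0.423). Prdx4, the peroxiredoxin of the endoplasmic reticulum, was at 40.1 ± 2.41 and 40.2 ± 7.34 CPM (adjusted p = 0.989).

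Prdx6, the peroxiredoxin with phospholipase activity that is known to be abundant in lung, was listed at 0 counts in all 8 libraries. It lies on chromosome 1, where 1138 of 1150 protein-coding genes of the table were listed at 0, compared with 0.399% to 11.5% of such genes on each other autosome. The level of Prdx6 can therefore not be read from these data. Prdx6 is the only member of the set on that chromosome.

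Glutathione peroxidases rose in 3 of 4 cases, and catalase did not pass. Gpx1, the widespread cytosolic selenoenzyme, was at 156 to 178 CPM in controls and 201 to 228 CPM after naphthalene, a small rise with no overlap (log2 0.37, SE 0.058, adjusted p = 0.00724). Gpx2, the epithelial form and an NRF2 target, was at 12.5 to 15.3 CPM in controls and 19.4 to 30.05 CPM after naphthalene (log2 0.75, SE 0.16, adjusted p = 0.00371). Gpx4, which reduces lipid hydroperoxides in membranes, was at 152, 162, 199.99 and 156 CPM in controls and 195, 235, 289 and 354 CPM after naphthalene. Only the pair of control 3 and naphthalene 1 overlapped there (log2 0.68, SE 0.21, adjusted p = 0.0119).

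Gpx3, a secreted plasma form, was at 239 ± 18.4 and 268 ± 51.6 CPM, with naphthalene 4 below all controls and naphthalene 1 highest of all (adjusted p = 0.387). Cat, the peroxisomal catalase, was at 296, 325, 319 and 335 CPM in controls and 264, 260.1, 229.6 and 296 CPM after naphthalene. The groups met at a single point, control 1 against naphthalene 4, and the change missed the threshold (log2 -0.28, SE 0.084, adjusted p = 0.0515). The Cat log2 fold change was -0.34 without naphthalene 4 and passed as lower (adjusted p = 0.0163), as it did with upper quartile scaling, DESeq2 and voom. Cat did not pass when any other single library was omitted (adjusted p up to 0.14).

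The superoxide dismutases moved in opposite directions. Sod1, the copper and zinc enzyme of the cytosol, rose from 66.7 ± 7.50 to 92.5 ± 7.95 CPM (log2 0.47, SE 0.10, adjusted p = 0.00667). Sod2, the manganese enzyme of mitochondria and a target of NF-kB, rose from 97.3 ± 7.48 to 126 ± 12.9 CPM (log2 0.37, SE 0.096, adjusted p = 0.0181), and did not pass when control 1 or naphthalene 3 was omitted (adjusted p up to 0.063).

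Sod3, the extracellular enzyme that binds matrix heparan sulfate and is made in quantity by vascular cells of the lung, was the only gene of the 40 tested that fell. It was at 96.9, 98.8, 100.3 and 96.1 CPM in controls and 86.2, 53.9, 41.3 and 49.3 CPM after naphthalene. Controls lay within a few CPM of each other, naphthalene 1 was just below them and the other 3 were far below (log2 -0.76, SE 0.23, adjusted p = 0.0109). Leaving out any 1 library kept the call. Of 8 smooth muscle markers 6 were tested, 1 fell and 0 rose, and Des and Lmod1 (on chromosome 1) were listed at 0, with a summed level of 231 to 441 CPM in controls and 381, 304, 181 and 208 CPM in naphthalene 1 to 4. Of 8 endothelial markers 2 fell and 0 rose, at 2231 to 2599 CPM in controls and 2628, 1962, 1502 and 1241 CPM in naphthalene 1 to 4. Naphthalene 1 was highest of the naphthalene libraries for both marker sums and for Sod3, and also for the summed fibroblast markers (2139 CPM). The controls did not share this match. Control 3 was lowest of the controls for both sums, at 231 and 2231 CPM, and highest for Sod3. The part of smooth muscle and endothelial cells in the fall was not tested.

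Neither export pump passed the test. Abcc1, which exports glutathione conjugates, was at 79.97 ± 11.4 and 80.1 ± 13.04 CPM (adjusted p = 0.99). Abcc4, an exporter of cyclic nucleotides and organic anions, was at 34.7 ± 3.21 and 31.6 ± 3.53 CPM (log2 -0.14, SE 0.10, adjusted p = 0.388).

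Related genes were set against each other within libraries, which is free of the scaling between libraries. The log2 ratio of counts was compared between groups for 12 pairs by an exact two-sided permutation test over the 70 splits of 4 and 4 libraries, whose smallest possible p is 0.0286. For 5 pairs the groups did not overlap and the exact p was that smallest value, which is 0.0686 after adjustment over the 12 pairs. Thus 0 pairs passed after adjustment. With this floor a pair could pass only if most of the 12 stood at the smallest value together, so nothing is read from that count. The Sod3 to Sod1 ratio was lower by a log2 value of -1.30 (SE 0.29) after naphthalene. Each of these genes was already without overlap, in opposite directions, so their ratio had to separate. Blvrb gained on Blvra by 1.05 (SE 0.12), Cbr3 on Cbr1 by 0.66 (SE 0.21), Txnrd1 on Txn1 by 0.40 (SE 0.12) and Nqo1 on Nfe2l2 by 1.25 (SE 0.31).

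For the other 7 pairs the groups overlapped. The ratio of Prdx1 to Prdx2 differed by 0.51 (SE 0.28, exact p = 0.171), with naphthalene 1 and 2 inside the control range. The ratio of Ftl1 to Fth1 differed by -0.089 (SE 0.19, exact p = 0.6), and that of Abcc1 to Abcc4 by 0.14 (SE 0.10, exact p = 0.257). Between G6pdx and Pgd the difference was 0.20 (SE 0.094, exact p = 0.0857).

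**Figure D3:**
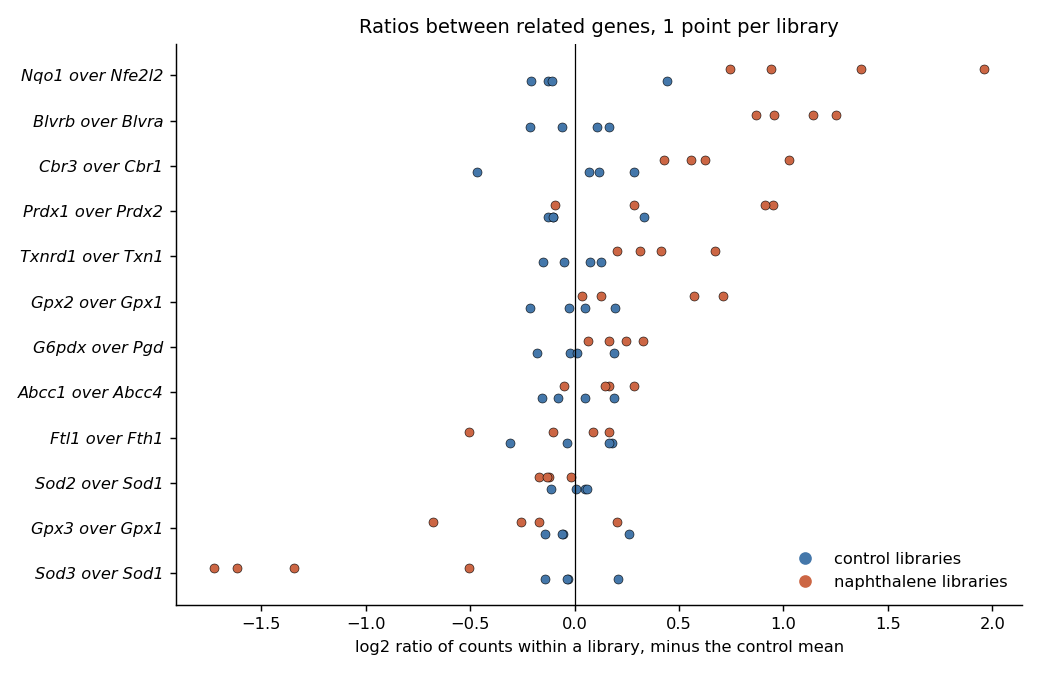
Log2 ratio of the counts of related genes in each library (x axis, minus the mean of the 4 controls), with 1 point per library and 12 pairs (y axis). Control and naphthalene points are apart for Nqo1 over Nfe2l2, Blvrb over Blvra, Cbr3 over Cbr1, Txnrd1 over Txn1 and Sod3 over Sod1, and mixed or touching for the other 7.

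The rise differed in size between the naphthalene libraries. Over the 26 genes that rose, the median log2 level above the control mean was 0.49 in naphthalene 1, 0.71 in naphthalene 2, 0.97 in naphthalene 3 and 0.64 in naphthalene 4. The summed club cell markers had the same order over these libraries, at 2662, 4117, 5306 and 3324 CPM. Other marker lists had other orders, such as the alveolar macrophage markers at 530, 710, 1176 and 1316 CPM. With several lists and 4 libraries a matching order can arise by chance, and the part of club cells in the size of the rise was not tested. The coefficient of variation was larger among naphthalene than among control libraries for 24 of the 26, with medians of 20.4% and 8.43%. Over all tested genes the medians were 15.8% and 11.1%, and the share with a larger value after naphthalene was not counted. The 26 were selected by the test on these same values. Setting their spread and library ranks beside all tested genes is therefore not like for like. Naphthalene 3 was the highest library for 23 of all 40 tested genes of the set and for 17 of the 26, compared with 22.4% of all tested genes. Those 17 include all 3 thioredoxin system genes, Nqo1, Osgin1, Hmox1, Blvrb, and 4 of the 5 NADPH supply genes.

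Naphthalene 4 was the highest for 7 others, namely Fth1, Gpx4, Prdx1, Sod1, Me1, Prdx5 and Sod2, compared with 31.4% of all tested genes. In that library Srxn1, Hmox1 and Txnrd1 were instead the lowest of the 4. Keap1 and Gpx1 were highest in naphthalene 2, and 0 of the 26 were highest in naphthalene 1. Naphthalene 1 was the lowest library for 15 of the 26. Among all 14192 tested genes naphthalene 1 was the highest naphthalene library for 4791 and the lowest for 4468.

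**Figure D4:**
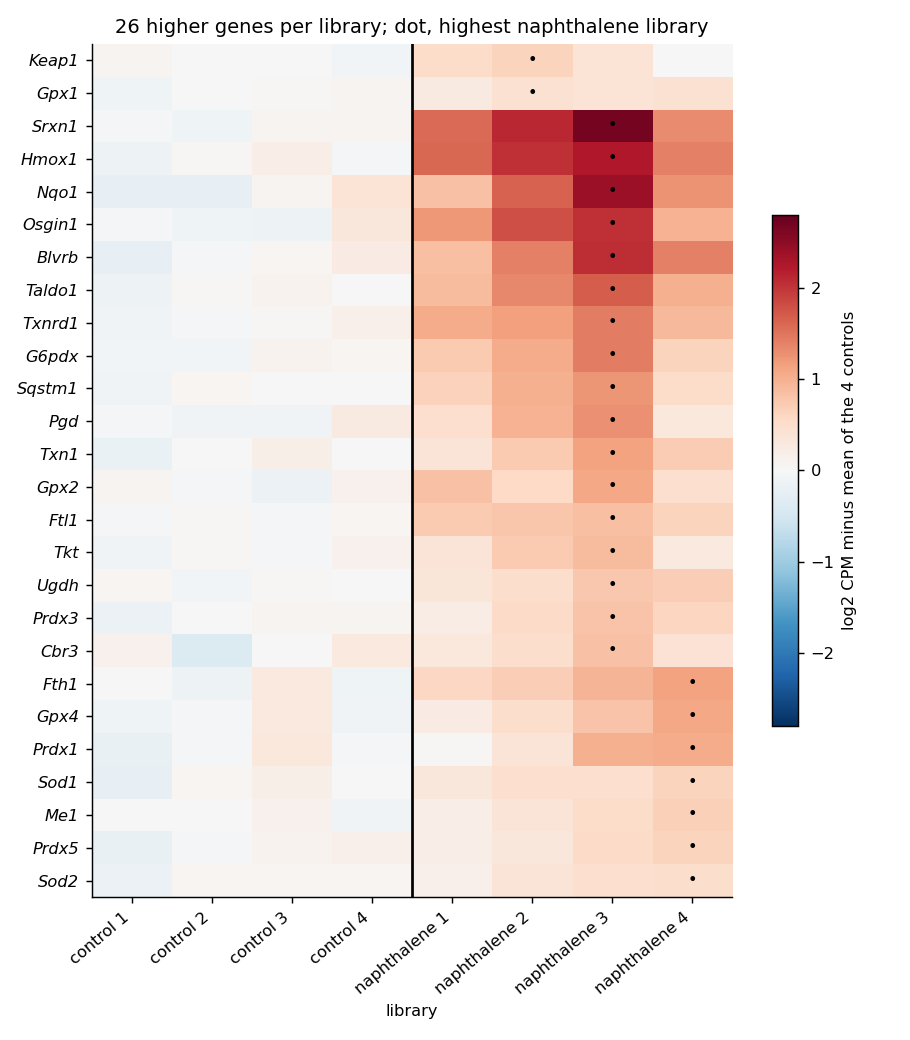
Log2 CPM minus the mean of the 4 controls (colour) in each library (columns) for the 26 genes that rose (rows), with a dot on the highest naphthalene library of each gene. Dots fall on naphthalene 3 for 17 genes, on naphthalene 4 for 7, on naphthalene 2 for 2 and on naphthalene 1 for 0.

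Transcript length went with the direction of change in the whole table. Length was that of the longest transcript, taken among protein-coding transcripts where annotated. Tested genes with at most 1500 bases had a median log2 change of 0.14 and were higher in 19.8% of 1925 cases. Those over 4000 bases had a median of -0.053 and were higher in 9.08% of 4603 cases. Of the 40 genes studied here 15 have at most 1500 bases, and 12 of these rose, whereas 5 have over 4000 bases, and 1 of these rose. With log2 changes corrected for length and GC of the transcript, 27 of the 40 were higher and 4 lower. That fit called more genes in the whole table, with 2632 higher and 2598 lower of 13581. The main fit called 2005 higher and 2070 lower of 14192. Nfe2l2, Bach1 and Slc48a1 then passed as higher, Cat, Cbr1 and Ptgr1 passed as lower, and Cbr3 and Prdx5 no longer passed (adjusted p = 0.0914 and 0.0996). Nfe2l2 and Slc48a1 passed with smaller log2 changes, from 0.28 and 0.21 to 0.23 and 0.19. Srxn1, Hmox1 and Sod3 moved little, from 2.03, 1.86 and -0.76 to 2.02, 1.77 and -0.75. Some genes with short transcripts shrank more, with Ftl1 going from 0.74 to 0.60, Sod1 from 0.47 to 0.31 and Gpx1 from 0.37 to 0.24.

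**Figure D5:**
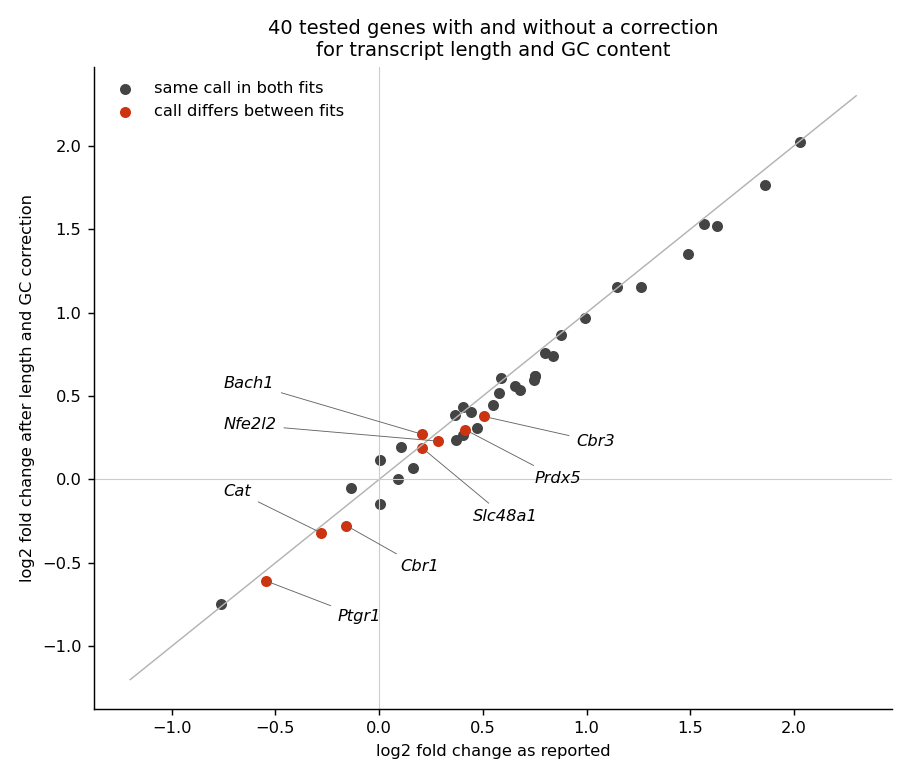
Log2 fold change of the 40 tested genes as reported (x axis) and after the length and GC correction (y axis), with the line of equality. The 8 genes whose call differs between the fits are labelled, and all 8 have log2 changes between -0.61 and 0.50.

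Other genes of the pathway changed less uniformly. In 8 further lists of 92 genes, 76 were tested, and 18 rose and 10 fell, where 14.1% of all tested genes were higher and 14.6% lower. The 10 that fell are near that share, as are several of the small counts for single lists that follow, from which nothing is read about those lists. Of the 16 not tested, 12 are on chromosome 1 and were listed at 0, among them Cul3, the ubiquitin ligase scaffold of KEAP1. Glutathione synthesis and recycling genes rose in 5 of 7 cases, with Slc7a11, the cystine importer, at 8.21 ± 2.04 and 63.6 ± 25.7 CPM and Gclc, the catalytic subunit of glutamate-cysteine ligase, at 212 ± 22.2 and 454 ± 95.5 CPM. Among other regulators 2 of 6 rose and 1 fell. The one that fell was Bach2, a BACH1 relative of lymphocytes, from 244 ± 16.3 to 121 ± 21.5 CPM, and 8 of 8 T and B cell markers fell as well, from a summed 120.4 to 156 CPM to a summed 34.9 to 61.4 CPM. The part of those cells in the fall of Bach2 was not tested.

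Of 12 thioredoxin-fold and methionine sulfoxide reductase genes 4 rose, including Glrx, cytosolic glutaredoxin, from 13.8 ± 0.823 to 26.6 ± 4.18 CPM and Txnl1 by 0.61 (log2, SE 0.18). Of 10 further NADPH supply genes 2 rose and 1 fell. The risers were Pgls, the lactonase between G6pdx and Pgd, by 0.60 (SE 0.10, adjusted p = 0.00278), and H6pd of the endoplasmic reticulum by 0.40 (SE 0.13, adjusted p = 0.0288). The H6pd log2 fold change did not pass when control 1, 2 or 4, or naphthalene 2, was omitted (adjusted p up to 0.0907). Of 11 further haem and iron genes 1 rose and 2 fell. Tfrc, the transferrin receptor, rose from 189 ± 41.3 to 429 ± 141 CPM, and Hp, the haemoglobin scavenger haptoglobin, fell from 541 ± 157 to 253 ± 49.9 CPM.

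Of 9 further reductase, conjugation and export genes 1 rose and 2 fell. Akr1b8, an aldo-keto reductase, rose from 14.7 ± 1.59 to 47.9 ± 9.62 CPM (log2 1.71, SE 0.17). Cbr2, a carbonyl reductase of club cells, fell from 1691 ± 374 to 939 ± 221 CPM (log2 -0.85, SE 0.23). Hp and Cbr2 are also among the club cell markers, whose summed level was 7722 to 14512 CPM in controls and 2662 to 5306 CPM after naphthalene. Their part in the fall of Hp and Cbr2 was not tested.

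Of 12 further peroxide and superoxide defence genes 2 rose and 1 fell. Sesn2, a stress-induced sestrin, rose by 0.91 (log2, SE 0.18), and Sesn3, its FOXO-regulated relative, fell by 0.82 (SE 0.074) on the log2 scale. Of 9 tested oxidant-producing enzymes 1 rose and 3 fell. Xdh, xanthine dehydrogenase, rose from 328 ± 27.9 to 649.9 ± 87.3 CPM, and Ncf1, a cytosolic subunit of the phagocyte NADPH oxidase, fell from 33.8 ± 3.14 to 23.8 ± 1.65 CPM.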

How the data were processed

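Whole-number read counts per gene symbol, without normalisation, were deposited by the authors. Stranded total RNA libraries were made, per the labels' protocols. The submitters' processing notes list, with no role or order, the genome build mm39, featureCounts 2.0.6, HISAT2 2.2.1, Trim Galore 0.6.7 and edgeR 4.2.1. For strand setting, annotation and multiply mapped reads the choice is not given in the sources.

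Columns were matched to samples by library name, and 0 columns were left over. The test was edgeR 4.0.16 under R 4.3.3 (TMM, filterByExpr with minimum count 10 and total 15, quasi-likelihood test, group as the only term), with Benjamini-Hochberg adjustment over 14192 genes. SE values are those of the difference in mean log2 CPM (prior count 2). Pair ratios used a pseudocount of 0.5. The fit was tested on simulated data. Lengths came from GENCODE M21 and chromosomes from RefSeq, on GRCm38, so only promoter sequences carry coordinates.

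The genes, lists, pairs and alternatives were chosen with earlier results of these data known. All 41 genes were accounted for. Per-library values are given for the 12 higher genes of smallest p, the lower gene, the regulators and some others, and further pathway genes are the 2 of smallest p per list. Alternatives covered scaling, filters, DESeq2 1.42.0, voom in limma 3.58.1, a replicate block, left-out libraries, and removal of haemoglobin and mitochondrial genes. The length and GC correction was chosen after seeing the data. Libraries of a group differed beyond sampling noise (chi-square 5.57 to 48.5 per degree of freedom), which does not show that they are separate animals. Each was counted as 1 replicate. Where the labels do not say that replicates are separate animals, p-values measure only the spread between these samples.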

Additional observations from a re-analysis of the deposited data

Results flagged for a closer look

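In 80 groups of 4 values (40 genes in control and in naphthalene libraries), 3 single libraries stood apart from the other 3 of their group, where chance flags about 1 in 20 groups. Control 4 was high for Osgin1, at 10.7 CPM against 7.64 to 8.16 CPM, and for Pgd, at 72.7 CPM against 57.4 to 59.3 CPM. Control 1 was low for Sod2, at 86.1 CPM against 100.4 to 101 CPM. Osgin1 and Pgd were higher after naphthalene also without control 4, and Sod2 did not pass without control 1 (adjusted p = 0.063).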

How the results depend on the processing

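Of the 26 genes that rose, 21 passed in all 18 alternatives, and 0 of the 27 genes past the threshold changed sign. Number lower was 1, but 2 with upper quartile scaling, 2 with the replicate block, 2 with DESeq2, 3 with voom with quality weights and 4 with the length and GC correction. Over all genes tested the number lower was 2070, and 2206, 2289, 2278, 3317 and 2598 in these settings. Without single libraries 1 to 2 members were lower, and 1513 to 2593 of all tested genes. For all genes past the threshold the number was 4075, and 6503 with voom. Further pathway genes past it numbered 28, and 49 with voom (28 higher, 21 lower). Of these, the lower numbered 18 with the correction and 6 to 14 without single libraries. No pairing of same-numbered libraries was evident from their deviations (r = 0.29, 0.033, 0.18 and -0.093), which does not exclude pairing. The highest r of control 1 was with naphthalene 1, and those of control 2, 3 and 4 were with another number. The replicate block gave 27 members higher and 2 lower, where 2074 of all 14192 tested genes were higher and 2289 lower. With it the Nfe2l2 log2 fold change passed as higher (adjusted p = 0.0344) and the Ptgr1 log2 fold change as lower (adjusted p = 0.0304).

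Values near 0 changed sign, none of them past the threshold. The Mafg log2 fold change was -0.0158 to 0.231 without single libraries and -0.0797 without control 3 and naphthalene 1. The Prdx4 log2 fold change was -0.0255 with upper quartile scaling, -0.0109 with no filter, -0.00995 with the replicate block, -0.0953 with voom, -0.145 with the correction and -0.0854 to 0.0904 without single libraries. The Abcc1 log2 fold change was -0.0273, -0.00867 and -0.000607 in the first 3 of these settings, -0.0913 without control 3 and naphthalene 1, and -0.0726 to 0.111 without single libraries. The cause was not tested. Pair ratios with a library left out were computed as values, without a test.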
